A study of Homo sapiens with 27 samples.

Results

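MGMT (gene ID 4255) encodes O6-methylguanine-DNA methyltransferase and lies on the forward strand of chromosome 10 at chr10:129467241-129770983 (GRCh38), a gene body of 303743 bases. The members here are all marked positions scored at least 30 in this gene body and in 100 kb on each side of it. The score is the whole number, 0 to 42, that the deposited site lists give each site. Of 115855420 such sites on the autosomes of all 27 libraries, 12052 lay in the gene body, 6707 of them at a G, and 7548 lay in the flanks. The gene is 1 of 19974 protein-coding genes in the RefSeq table used.

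The methyltransferase takes the methyl group from O6-methylguanine onto a cysteine of its own and is used up in doing so. Temozolomide (TMZ), the alkylating drug given for glioblastoma, owes most of its toxicity to this lesion, which pairs with thymine and is processed by mismatch repair. Methylation of the CpG-rich MGMT promoter silences the gene in many glioblastomas and goes with a better response to the drug.

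LN-229 is an established human glioblastoma cell line. The study used O6-MeG-seq, in which fragments with O6-methylguanine are enriched by an antibody and a polymerase that stalls at the lesion marks its position. There were 8 cell groups of 3 replicates. WT cells, here the transfection control of the other line, and MGMT-transfected cells received 1 mM TMZ or 1% DMSO as solvent, either once (1x) or every 4 h for 3 exposures (3x), with DNA extraction 24 h from the start. In addition, 3 libraries came from naked DNA exposed to 1 mM TMZ, replicate 1 from non-transfected WT cells, replicate 2 from WT cells and replicate 3 from MGMT-transfected cells. The construct, its promoter, its place in the genome and the number of clones are not stated in the labels, and the labels do not say how the naked DNA replicates differ in handling. P-values below measure the spread between libraries. They take the libraries as independent, although libraries of a set share sites, as described next.

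The 27 libraries held 594592 to 12443872 autosomal sites at this score, and the MGMT gene body held 54 to 1510 of them. The libraries were joined into 5 sets through pairs that had marked positions at bases other than G in common, for their numbers of sites, more than 1.6 times as often as the median pair. This held for 48 of the 85 pairs within sets, and no pair between sets went above 1.4 times. In the set of the 4 cell libraries with replicate number 1 after 1 exposure and naked DNA replicate 1, the MGMT-transfected solvent library had 38.9% of its sites in common with other members. In the MGMT gene body this was 50 of its 109 sites. The WT solvent library of this set had 30.2% in common, with 17 of its 54 body sites. The MGMT-transfected TMZ library had 13.5%, with 46 of 206. Leaving out 1 library thus does not take away the sharing in this set. The MGMT-transfected solvent library had 43.7% of its autosomal sites at G, against 19.0% to 27.8% in the other 11 solvent libraries. It is called MGMT-transfected solvent replicate 1 below, and the results that it changes most are given with and without it. The part of shared sites in the results was not tested beyond leaving them out.

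The RefSeq promoter window of MGMT (GRCh38.p14, chr10:129466991-129467290, forward strand, 250 bases before to 50 after the start) is printed because its sites can be placed base by base. Capitals mark the 12 positions at which a G of either strand was marked in naked DNA or in TMZ-treated cells. A capital C stands for a marked G on the reverse strand.
MGMT promoter: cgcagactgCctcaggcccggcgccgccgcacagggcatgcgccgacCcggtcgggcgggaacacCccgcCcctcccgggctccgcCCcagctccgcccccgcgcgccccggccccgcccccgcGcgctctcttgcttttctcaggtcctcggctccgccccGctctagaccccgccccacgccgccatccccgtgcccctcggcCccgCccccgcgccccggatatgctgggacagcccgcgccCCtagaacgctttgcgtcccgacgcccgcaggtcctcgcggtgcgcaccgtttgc

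The window had 45 CpG, against a median of 14 over 33558 promoter windows of the table, and 78.7% of its bases were G or C. The naked DNA libraries marked 7 of its 236 G positions, summed over the libraries and both strands, the 12 TMZ cell libraries 6 and the 12 solvent libraries 2. Per 1000 G this was 29.7 in naked DNA, 25.4 in TMZ-treated cells and 8.47 in solvent cells. Over all promoter windows it was 23.8, 36.1 and 4.00. These values sum marks over 3, 12 and 12 libraries and are not scaled to depth. They therefore do not compare cells with naked DNA. In 2669 windows of similar G and C content the counts in naked DNA ran from 1 at the 5th percentile to 12 at the 95th, and those in TMZ-treated cells from 2 to 16, so both MGMT counts lay inside the common range. In solvent cells the counts of these windows ran from 0 to 2, and the MGMT count of 2 lay at that upper end. The numbers are too small to set cells and naked DNA apart in this window. Over all promoters, naked DNA marked a G after a G most often, at 35.1 per 1000, and a G after a T least, at 11.7, with 12.3 after a C. In the MGMT window 6 of the 7 naked DNA marks followed a G, and 38.0% of its G positions followed a C, against 19.6% over all windows.

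The first comparison asked whether the gene body of the MGMT-transfected line held more marked sites at all bases. No RNA or protein is measured here, so the label of the line could be checked only through DNA, and the labels do not say whether the transfected copy holds introns. The body site rate was slightly higher in MGMT-transfected than in WT cells, and the groups overlapped throughout. WT cells after 1 solvent exposure gave 90.8, 80.6 and 92.8 sites per 1000000 autosomal sites in replicates 1 to 3. MGMT-transfected cells after 1 solvent exposure gave 126, 83.6 and 94.3, so replicate 1 stood above every other cell library. After 3 solvent exposures the rates were 76.2, 84.9 and 67.8 in WT and 91.1, 84.5 and 88.7 in MGMT-transfected cells. After 1 TMZ exposure they were 87.6, 99.9 and 102 in WT and 107, 97.0 and 101 in MGMT-transfected cells. After 3 TMZ exposures they were 102, 105 and 102 in WT and 100.1, 114 and 117 in MGMT-transfected cells.

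On the log2 scale the 12 MGMT-transfected libraries had a mean rate of 6.64 ± 0.19 (SD) and the 12 WT libraries one of 6.50 ± 0.20 (SD). The difference of 0.14 had p = 0.01485 in an exact two-sided permutation test within exposure and treatment, and the Benjamini-Hochberg adjusted p over 8 comparisons of this gene was 0.0533, so it did not pass. The MGMT-transfected library was the higher in 8 of 12 same-numbered pairs. Within the 4 sets that hold cell libraries the difference was 0.38, 0.06, 0.04 and 0.39. Without MGMT-transfected solvent replicate 1 it was 0.10, with p = 0.0379 in the same exact test before adjustment.

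**Figure D1:**
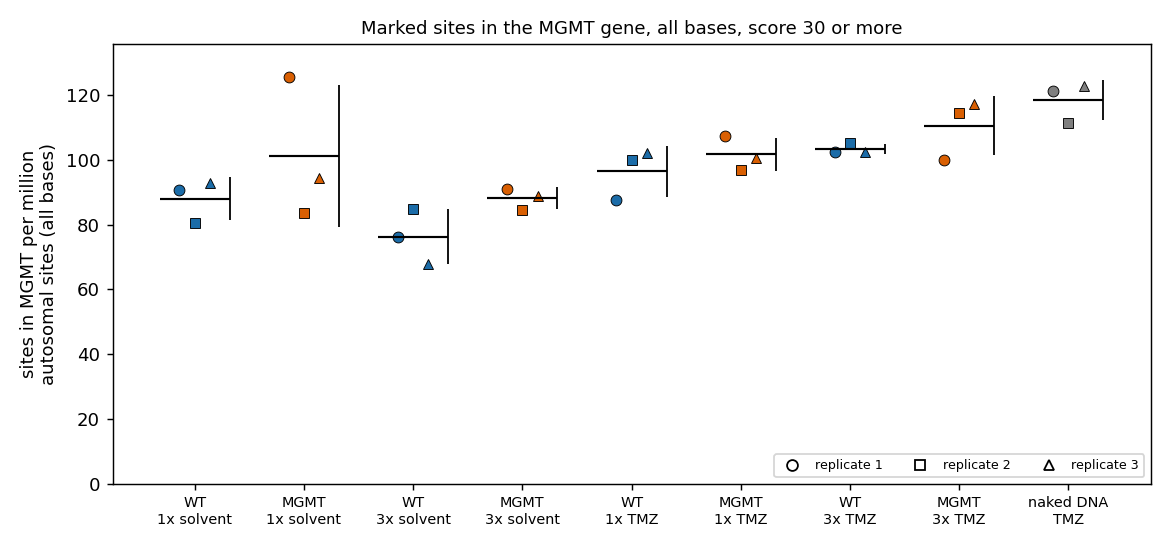
Marked sites at all bases in the MGMT gene body, score 30 or more, per 1000000 autosomal sites, by group. Points are libraries (symbol, replicate number), horizontal bars the means of 3 libraries and vertical lines ± 1 SD. MGMT-transfected solvent replicate 1 lies at 126, and all other cell libraries lie between 67.8 and 117.

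The body was then set against its own flanks. The log2 ratio of body to flank site density averaged 0.17 ± 0.15 (SD) over the 12 MGMT-transfected libraries and 0.040 ± 0.15 (SD) over the 12 WT libraries. The gap of 0.13 had p = 0.0585 by the exact permutation test and an adjusted p of 0.117, and it was positive in 6 of 12 same-numbered pairs. Without MGMT-transfected solvent replicate 1 it was 0.11 with p = 0.103 in the same exact test. The unadjusted p passed 0.05 in 6 of 27 fits that left out libraries, with 0.21 (exact p = 0.037) without replicate 2 of every group and 0.16 (exact p = 0.0256) without WT replicate 2 after 1 TMZ exposure. It was positive in all replicate 1 pairs except that after 3 TMZ exposures, and without replicate 1 of every group it was 0.00071. A cDNA holds exons only, and introns make up most of this gene, so a whole-body rate says little about a cDNA copy. Sites in exons against introns were not analysed here, since exon coordinates were not used.

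Narrow windows over the whole gene body were counted next. They were laid without exon positions, so they cannot stand in for exons. Pooled over 12 libraries, the 1215 windows of 250 bases in the gene body held a median of 3 sites in each line. After scaling to equal totals and adding 2 sites, 108 windows were more than 2-fold higher in MGMT-transfected and 75 in WT cells, and 5 and 3 were more than 4-fold higher. No chance level was worked out for these numbers of windows. The largest excess in the MGMT-transfected line was 14 sites against 2 at chr10:129554491-129554740, 87.3 kb after the start. Of these 14 sites, 4 were marks at 1 G position, in libraries of 2 sets that share sites. The largest excess in WT was 8 against 0 at chr10:129493241-129493490, 26 kb after the start. In the last 1 kb of the gene, which holds the end of the transcript, MGMT-transfected cells gave 11 sites in 8 libraries and WT cells 6 in 5, a ratio of rates of 2.16 (95% exact interval 0.734 to 7.13, counting error only). In the first 1 kb the counts were 11 and 13, with a ratio of 0.999. In the 1 kb before the start they were 7 and 20, a ratio of 0.413 (0.148 to 1.02). None of the intervals given excludes a ratio of 1.

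The naked DNA libraries allow the same check in DNA without living cells. The MGMT gene body held 1047 sites in replicate 3, from MGMT-transfected cells, and 835 in replicate 2, from WT cells. These were 123 and 111 sites per 1000000 autosomal sites, a ratio of 1.10 (95% exact interval 1.01 to 1.21, counting error only). At G alone the ratio was 1.10 (0.982 to 1.23), from 717 and 579 sites. Between genes the spread was wider than these intervals. Among 3209 autosomal genes of at least 100 kb the log2 ratio of replicate 3 to replicate 2 at all bases ran from -0.32 at the 5th percentile to 0.40 at the 95th, and that of MGMT, 0.14, lay at the 78.8th. There is 1 library on each side, so the difference has no replicate check. Naked DNA replicate 1, from non-transfected cells, gave 121 sites per 1000000.

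A fit over all genes put these differences in context. In limma with voom weights over 24 cell libraries and 17822 genes, 3712 genes (20.8%) differed between the lines at all bases at an adjusted p of 0.05 or less. MGMT did not, with a log2 difference of 0.12 (SE 0.05, adjusted p = 0.0957 in limma). It was called in 3 of 27 fits that left out libraries, where the limma adjusted p ran from 0.0309 to 0.405. The transfected line thus differed from its control in the site rate of many genes, and MGMT was not among those called in the main fit. In the same fit over 53415 windows of 50 kb, 23.9% were called, and 1 of the 11 windows that touch the locus was among them. It was chr10:129550001-129600000 inside the gene, with a log2 difference of 0.30 (SE 0.10, limma adjusted p = 0.0164). No locus window was called without replicate 1 of every group, without replicate 3 of every group or with no score minimum. Of the 11 windows 10 had a positive difference, with a median of 0.07, against -0.02 over all windows. In the 46 windows within 1 Mb of the gene, those of the locus included, the median was 0.10. Of these, 7 (15.2%) were called, all higher in the transfected line, a smaller share than the 23.9% over all windows. The differences of all windows ran from -0.31 at the 5th percentile to 0.39 at the 95th, so medians of 0.07 and 0.10 lay well inside that range. On chromosome 10 as a whole 2.75% of windows were called, with a median of -0.03.

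**Figure D2:**
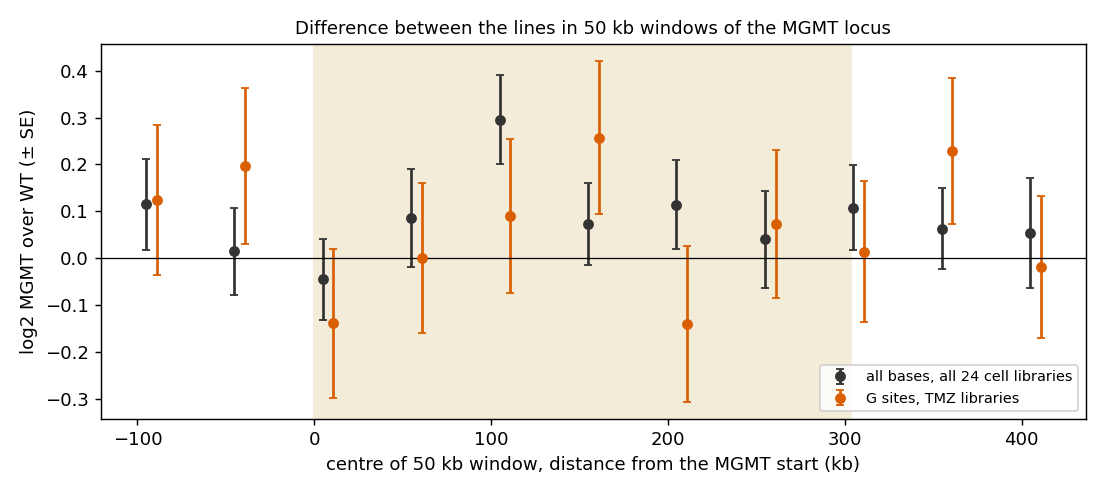
Log2 difference between MGMT-transfected and WT cells with its standard error, in the 11 windows of 50 kb that touch the MGMT locus, from limma fits over all windows. The shaded band is the gene body, black points are sites at all bases in 24 libraries and orange points G sites in the 12 TMZ libraries. The black point at 0.30 inside the gene was called at an adjusted p of 0.0164, and no orange point was called.

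The share of MGMT sites at G rose under TMZ, in the gene as in the rest of the genome. After 1 solvent exposure it was 31.5%, 22.8% and 19.3% in WT and 56.0%, 24.5% and 19.4% in MGMT-transfected replicates 1 to 3. After 3 solvent exposures it was 25.6%, 20.3% and 15.96% in WT and 23.6%, 25.4% and 28.7% in MGMT-transfected cells. Apart from the 56.0% of MGMT-transfected replicate 1, the solvent libraries stayed at or below 31.5%. After 1 TMZ exposure the share was 48.8%, 51.7% and 55.6% in WT and 37.4%, 39.9% and 48.9% in MGMT-transfected cells. After 3 TMZ exposures it was 63.2%, 67.1% and 62.8% in WT and 54.7%, 63.0% and 61.3% in MGMT-transfected cells. Naked DNA gave 77.1%, 69.3% and 68.5%. The 95% Wilson intervals of these shares reached from 2.12 to 12.03 points to either side, with the widest in the solvent libraries.

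The 12 TMZ libraries averaged 54.5% ± 9.5 (SD) at G and the 12 solvent libraries 26.1% ± 10.3 (SD). The difference of 28.5 points had p = 7.5e-05 in the exact permutation test within line and exposure number, an adjusted p of 0.0006, and held in 11 of 12 same-numbered pairs. The exception was the pair of MGMT-transfected replicate 1 after 1 exposure. Its rise was -18.6 points in MGMT and -6.33 points over all autosomal sites. Without its solvent library the difference was 31.3 points. Within the set of 5 libraries that this pair belongs to, the difference was -0.65 points, and in the next 2 sets it was 28.3 and 36.8 points. Over all autosomal sites the share at G differed by the same 28.5 points, from 51.2% under TMZ and 22.7% under solvent, so the rise in MGMT was as large as that of the libraries as a whole. MGMT had a higher share at G than its library's autosomes in 11 of 12 TMZ and 11 of 12 solvent libraries, by a mean of 3.32 and 3.36 points.

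**Figure D3:**
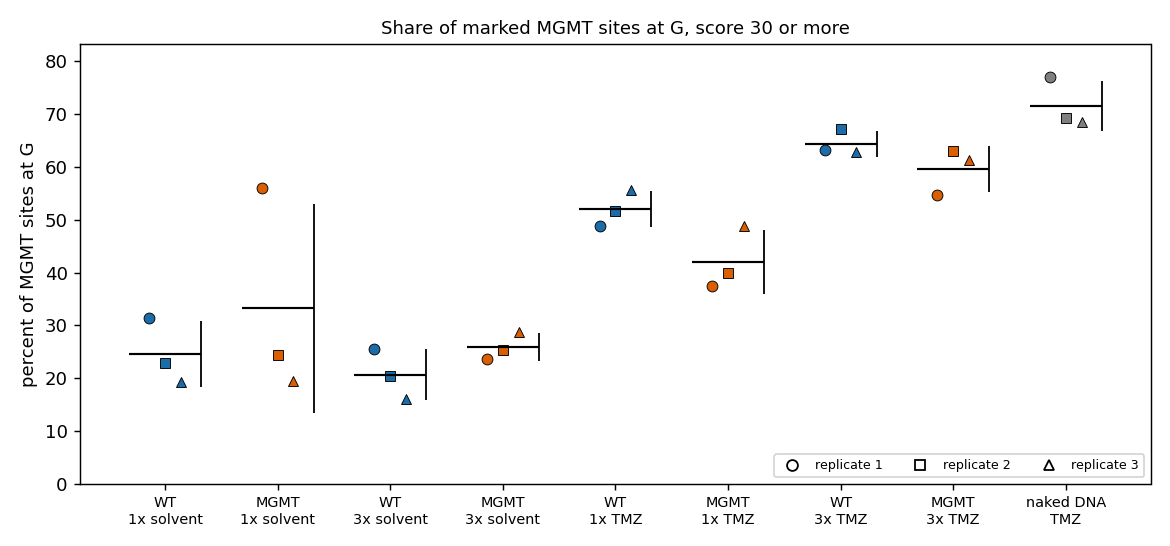
Percent of marked MGMT gene body sites at G by group, with the 3 replicates as points, their mean as a horizontal bar and ± 1 SD as a vertical line. TMZ groups lie above the solvent groups except for MGMT-transfected solvent replicate 1, at 56.0%, and naked DNA lies highest, at 68.5% to 77.1%.

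The share at G under TMZ was lower in MGMT-transfected than in WT cells in 6 of 6 same-numbered pairs, with means of 50.9% ± 10.7 and 58.2% ± 7.3 (SD, n = 6 each). The difference of -7.34 points had p = 0.02 in the exact permutation test and an adjusted p of 0.0533, so it did not pass after adjustment. Without WT replicate 3 after 1 TMZ exposure the exact p was 0.055, and without WT replicate 2 after 3 TMZ exposures it was 0.06. Over all autosomal sites the lines differed by -6.20 points in the same direction. The rise under TMZ averaged 38.8 points after 3 exposures and 18.1 after 1. Over all autosomal sites the rise was 39.7 points after 3 exposures and 17.3 after 1, so MGMT followed its libraries here too. In MGMT the difference of 20.6 points had p = 0.005 in an exact permutation of differences between TMZ and solvent libraries matched by replicate number, the smallest p it can give, and an adjusted p of 0.02 over 4 such differences. This permutation takes no account of the sets that share sites, and exposure number and set partly cannot be told apart: the set of MGMT-transfected solvent replicate 1 holds cell libraries after 1 exposure only. Without that set, a check added after seeing the data as are those that follow, the rise after 1 exposure was 27.5 points and the difference 11.3 points, with p = 0.01 in the exact test, the smallest it can then give. The autosomes gave 16.5 points there. Within the 2 sets that hold both exposures the rise was larger after 3 exposures in 4 of 4 comparisons, by 8.83 and 10.5 points in WT and 15.7 and 8.16 in MGMT-transfected cells. The mean of 10.8 points had p = 0.125 in an exact sign permutation, the smallest that 4 differences allow. Over all 1296 ways to match the 3 TMZ and 3 solvent libraries of a line and exposure number, the exact p of the 20.6 points ran from 0.005 to 0.015. Without MGMT-transfected solvent replicate 1 the difference was 13.8 points with p = 0.005 in the same exact test.

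Relative to all G sites of a library, no difference of MGMT under TMZ passed the test. The body held 56.1 to 161 G sites per 1000000 autosomal G sites in the 12 solvent libraries, with both ends in single libraries, and 95.2 to 123 in the 12 TMZ libraries. The lowest value was WT replicate 3 after 3 solvent exposures, from 15 G sites, and the highest was MGMT-transfected solvent replicate 1, from 61. On the log2 scale the means were 6.79 ± 0.10 under TMZ and 6.64 ± 0.36 under solvent (SD, n = 12 each). The difference of 0.15 had p = 0.152 in the exact permutation test and an adjusted p of 0.243. Without MGMT-transfected solvent replicate 1 it was 0.21 with p = 0.00984 in the exact test before adjustment, so the outcome turned on that library. Between 3 and 1 TMZ exposures the rate differed by -0.0076, with p = 0.915 in the exact test.

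In the gene-wide limma fit of G sites with voom, MGMT was not called in any of 8 comparisons. With limma-trend in place of voom, on median-of-ratios sizes, it was called between the lines under solvent. TMZ against solvent gave log2 differences of 0.14 (SE 0.16) in WT after 1 exposure, 0.32 (SE 0.19) in WT after 3, -0.09 (SE 0.17) in MGMT-transfected cells after 1 and -0.09 (SE 0.14) after 3, with limma adjusted p of 0.878, 0.393, 0.967 and 0.784. Single libraries moved these values: that of WT after 3 exposures was 0.16 without WT solvent replicate 3 and 0.52 without WT solvent replicate 2, and that of MGMT-transfected cells after 1 exposure turned to 0.07 (limma adjusted p = 0.929) without MGMT-transfected solvent replicate 1. That of WT after 1 exposure was 0.02 without WT TMZ replicate 2, and that of MGMT-transfected cells after 3 was -0.17 without their solvent replicate 1 and -0.03 without solvent replicate 3. In these comparisons 0%, 1.32%, 0% and 2.9% of 17029 genes were called, so a gene left uncalled was the common outcome. The counts of 0 had 1284 and 1066 genes at an unadjusted p under 0.05. Between the lines MGMT differed by 0.06 (SE 0.08, limma adjusted p = 0.736) under TMZ, where 8.72% of genes were called, and by 0.39 (SE 0.15, limma adjusted p = 0.28) under solvent, where 0.393% were. Between 3 and 1 TMZ exposures it differed by -0.08 (SE 0.08, limma adjusted p = 0.761), where 0% were called and 1739 had an unadjusted p under 0.05. The interaction of line and TMZ was -0.32 (SE 0.17, limma adjusted p = 0.997), where 0.00587% were called, and it was -0.23 without MGMT-transfected solvent replicate 1. None of the 11 windows of the locus was called in these 8 comparisons. Over all windows the called share was 0.00752%, 0.556%, 0% and 1.35% for TMZ against solvent in the order above, 4.75% and 0.0714% between the lines under TMZ and solvent, 0.00188% between exposures and 0% for the interaction.

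Set against the 3 naked DNA libraries together, the MGMT locus carried a smaller share of the autosomal G sites in TMZ-treated cells. The size of this gap depended on the naked DNA library. Replicate 1 gave 1164 of the 2460 naked DNA G sites in the gene. In the 30 windows of 10 kb inside the gene the G rate of the 12 TMZ libraries together was below that of naked DNA in 26, with a median log2 ratio of -0.18. In the 19 windows of the flanks it was below in 17, with a median of -0.22. Against naked DNA replicate 2 alone, 17 of the 30 gene windows were below, with a median of -0.03, against replicate 3 alone 21, with -0.15, and against replicate 1 alone 27, with -0.21. The lowest value within the gene was -0.47, at 150 to 160 kb after the start, from 91 sites in cells and 75 in naked DNA. The highest was 0.18, at 180 to 190 kb, from 138 and 72 sites. The window that holds the gene's end, 300 to 310 kb, was lowest of all at -0.67, from 109 and 103 sites. These windows share libraries and are a description of the profile.

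**Figure D4:**
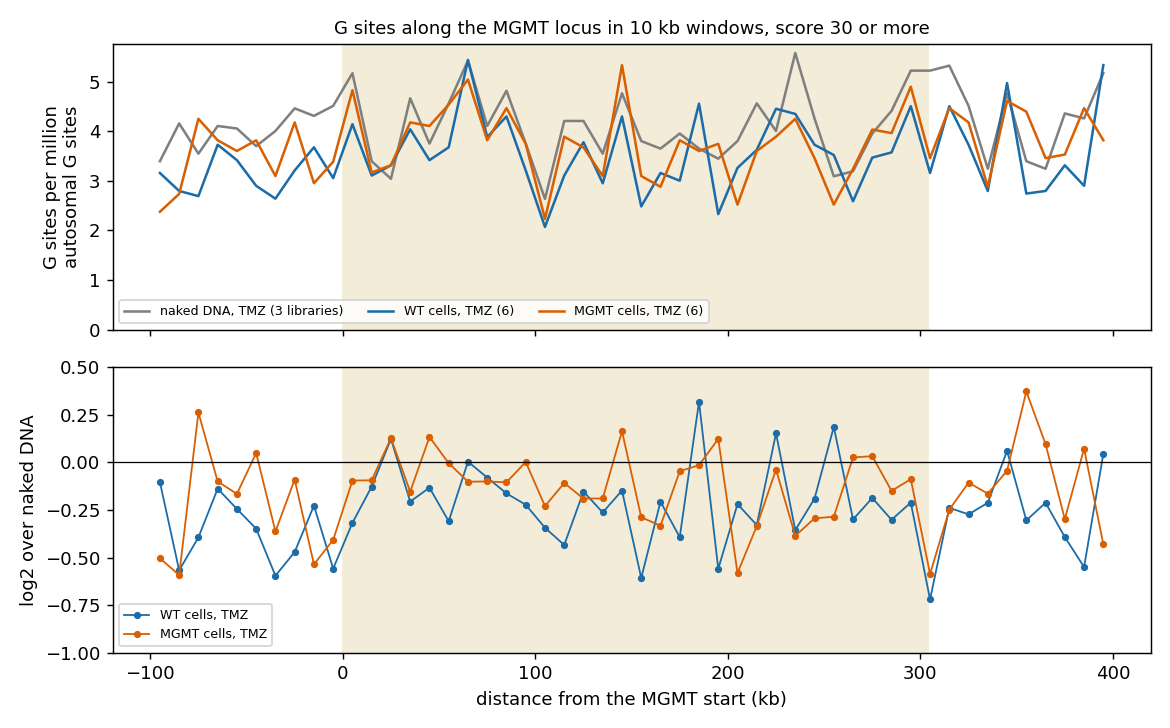
G sites (score 30 or more) in 10 kb windows along the MGMT locus, by distance from the gene start, with the gene body shaded. The upper panel gives sites per 1000000 autosomal G sites in naked DNA and in TMZ-treated WT and MGMT-transfected cells, the lower panel the log2 ratio of each line to naked DNA, which was below 0 in 25 of 30 body windows for WT and 23 of 30 for MGMT-transfected cells.

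Per library, the log2 ratio of MGMT G density to the mean of naked DNA was -0.36, 0.0029 and -0.19 in WT after 1 TMZ exposure and -0.19, -0.046 and -0.13 in MGMT-transfected cells. After 3 TMZ exposures it was -0.18, -0.16 and -0.26 in WT and -0.24, -0.074 and -0.047 in MGMT-transfected cells. All but 1 of the 12 were below 0, and so were 12 of 12 against naked DNA replicate 1 alone, 8 of 12 against replicate 2 alone and 12 of 12 against replicate 3 alone. The lines did not separate, with means of -0.12 ± 0.08 in MGMT-transfected and -0.19 ± 0.12 in WT libraries (SD, n = 6 each). Their difference of 0.070 had p = 0.315 in the exact permutation test and an adjusted p of 0.42. It was 0.025 without WT replicate 1 after 1 TMZ exposure and 0.12 (exact p = 0.06) without WT replicate 2 of the same group. The 3 naked DNA libraries themselves spread from -0.12 to 0.10 on this scale, with replicate 1 highest and replicate 2 lowest.

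Among 3209 autosomal genes of at least 100 kb, the pooled log2 ratio of MGMT, -0.17, lay at the 2.18th percentile, with the 5th at -0.13 and the median at 0.03. WT cells alone gave -0.20 at the 2.52nd percentile. MGMT-transfected cells alone gave -0.13 at the 16.1st percentile, inside the common range. The place also depended on the naked DNA library used. The ratio was -0.25 (1.06th percentile) against replicate 1 alone, -0.03 (33.2nd) against replicate 2, -0.16 (11.3rd) against replicate 3 and -0.10 (12.03rd) against replicates 2 and 3 together. Against replicate 2 alone the lines gave -0.06 (WT) and 0.01 (MGMT-transfected). EBF3, a transcription factor gene whose nearer end lies 64.2 kb beyond the end of MGMT, lay lower still, with a ratio of -0.25, at the 0.405th percentile. In G sites per kb per 1000000 autosomal G sites, MGMT had 0.411 in naked DNA (65.5th percentile), 0.364 in TMZ-treated cells (45.7th) and 0.331 in solvent cells (26.0th). Solvent cells thus lay lower than TMZ-treated cells against naked DNA, with a log2 ratio of -0.31 (12th percentile).

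**Figure D5:**
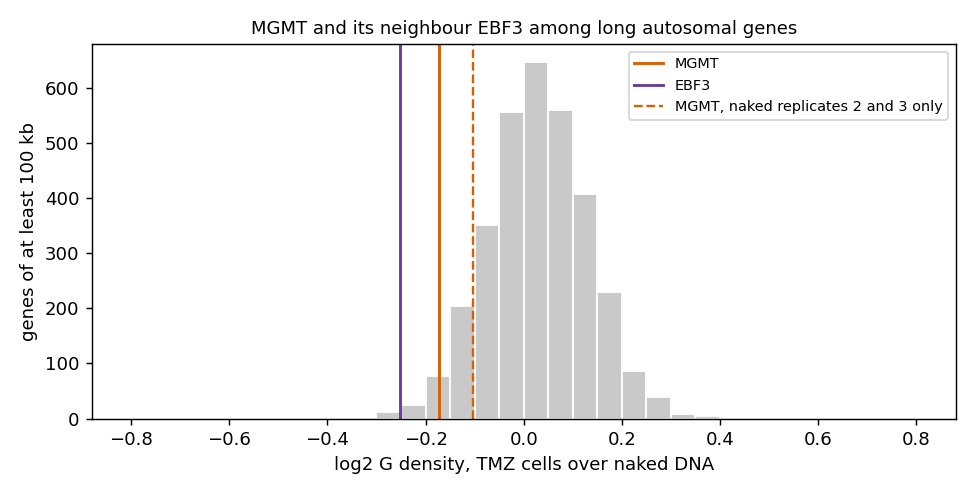
Number of autosomal genes of at least 100 kb by log2 ratio of G density in TMZ-treated cells over naked DNA, in bins of 0.05. MGMT lies at -0.17 with all 3 naked DNA libraries and at -0.10 with replicates 2 and 3 only (dashed), and its neighbour EBF3 at -0.25.

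The forward strand is the coding strand of MGMT, and under TMZ and in naked DNA it carried more than an even share of the marked G sites in every library. Under TMZ the forward share was 57.0%, 58.4% and 59.2% in WT and 57.1%, 63.1% and 54.7% in MGMT-transfected cells after 1 exposure. After 3 exposures it was 57.1%, 56.2% and 57.7% in WT and 57.4%, 58.6% and 57.0% in MGMT-transfected cells. Naked DNA gave 56.3%, 56.0% and 54.0%, all above an even share as well. The lines differed by 0.39 points under TMZ, with p = 0.8 in the exact permutation test. Among 2639 long genes with a known strand, the pooled share of 57.6% under TMZ lay at the 95.1st percentile. The 55.5% of naked DNA lay at the 80.6th. The medians of these genes were 53.5% and 53.3%, so more than an even share was the common outcome. The pooled solvent share of 52.8% lay at the 62.0th percentile, with a median of 51.9%. The shares are not corrected for the number of G on each strand. TMZ-treated cells exceeded naked DNA by 2.09 points (85.6th percentile). In solvent libraries the share was 44.4% ± 3.1 in WT and 58.2% ± 6.5 in MGMT-transfected cells after 1 exposure, and 50.2% ± 7.8 and 58.3% ± 11.2 after 3 (SD, n = 3 each), from 15 to 74 G sites a library. In 5 of the 6 WT solvent libraries it was below an even share, at 41.2% to 47.3%, and in 1 of the 6 MGMT-transfected ones. The MGMT-transfected library was the higher in 6 of 6 same-numbered solvent pairs, by 21.1, 3.45, 16.8, 4.54, 0.77 and 19.1 points. The mean difference of 10.9 points had an unadjusted p of 0.03 in an exact permutation test added after these values were seen, and without MGMT-transfected solvent replicate 1 it was 9.92 points with an exact p of 0.05.

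Few positions of the gene were marked more than 1 time. Of 6306 G positions in the body, 5950 were marked in 1 library of 27, 317 in 2, 33 in 3 and 6 in 4. This made 5.65% marked in 2 or more, against 2.44% of 2007 A, 2.74% of 1243 C and 2.45% of 1963 T positions. More positions were marked at G than at any other base. No chance level was worked out for these unlike numbers, so the shares do not show that a G is marked again more readily. Positions marked in libraries of 1 set count here too. The 6 positions in 4 libraries all lay 51.9 to 216 kb after the start, and 5 of them included naked DNA. The exception was chr10:129554702 on the reverse strand, marked in 4 MGMT-transfected libraries, 3 with TMZ and 1 with solvent. These libraries belong to 2 of the sets that share sites, so they are not 4 separate observations. Its 4 marks are among the 14 sites of the 250-base window with the largest excess in that line, so position and window are 1 observation in part. No solvent library marked any of the other 5, but the solvent libraries held only 576 of the 6707 G sites in the body.

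Other genes served for comparison. LOC124902531, a predicted gene inside MGMT, had 34 G sites over 24 cell libraries and did not pass the filter of the fit. EBF3 and MKI67, the next protein-coding gene on the other side, 1340 kb away, which encodes the proliferation marker Ki-67, differed between the lines under TMZ by -0.04 (SE 0.11) and 0.25 (SE 0.20), and neither was called. After removing group means, the genes whose log2 G rate followed that of MGMT most closely over 24 libraries were TBC1D2 (Pearson r = 0.866), CSTPP1 (0.864) and NLN (0.828). Over the 6164 genes compared, r had a median of -0.0065 and a 95th percentile of 0.522. The lowest r was -0.875, about as far from no correlation as the highest. These values are a description, since the libraries share sites and depth.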

How the data were processed

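Each of the 27 deposited files lists marked sites with a position counted from 0, a strand, a base and a score; the authors' score is a whole number per site and no read count, so the values have no depth beyond the number of sites. Per the submitters' processing notes the tools were FastQC 0.11.9, Trimmomatic 0.38 and 0.39, cutadapt, Bowtie2 2.3.5.1, GATK 4.2.0.0, SAMtools 1.12 and bedtools 2.29.2, with GRCh38. How sites were filtered and whether duplicate reads were removed are not given in the sources used here. The deposited position column (other) was checked against the RefSeq promoter table: the base was equal at 573102 of 573102 sites.

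Sites scored at least 30 were tallied in the MGMT body and flanks and divided by the library's autosomal sites, with 0.5 sites added before log2. Group differences were tested by exact permutation within strata, two-sided, adjusted (Benjamini-Hochberg) over 8 comparisons. Genes and 50 kb windows holding 10 sites or more in 3 libraries or more were fitted with limma 3.58.1 in R 4.3.3. The fit used TMM sizes, voom and all 24 cell libraries in 1 fit, with an adjusted p of 0.05 as the threshold. Site numbers took the place of read counts there. The code was also run on simulated libraries drawn independently. Those do not share sites, so that run does not bear on the sets that do. Python 3.11.15 with NumPy 2.4.6 and SciPy 1.17.1 did the rest. Genes were named by a rule: MGMT, protein-coding genes within 100 kb and the nearest on each side, and the 3 most correlated genes. A list of repair genes is not reported here. The members and lists were chosen with earlier results of these data known. Single positions, narrow windows and the promoter's bases were named after their values were seen. The tests above take no pairs; only the differences of TMZ effects match libraries by replicate number. The labels do not say that the numbers mark pairs, and the deviations of 1 Mb bins correlated above 0.1 in only 6 of 12 same-numbered pairs between lines and 6 of 12 between treatments, so no pairing was taken for the main tests. The numbers did follow the sets that share sites: same-numbered libraries lay in 1 set in 12 of 12 pairs between lines and 10 of 12 between treatments. Alternatives changed the score minimum, scaling, added sites, flank length, filter, normalization, block and the libraries used. Exons and introns were not compared, because exon coordinates were not used here.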

Additional observations from a re-analysis of the deposited data

Results flagged for a closer look

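The rise of the share at G under TMZ in the MGMT gene differed between groups, as it did over all autosomal sites. In MGMT it was 38.8 points after 3 exposures and 18.1 after 1, a difference of 20.6 points with p = 0.005 by an exact permutation test and an adjusted p of 0.02. The permutation takes no account of the sets that share sites. Without the set that holds cell libraries after 1 exposure only, the rise after 1 exposure was 27.5 points and the difference 11.3 points, with an exact p of 0.01, the smallest possible there. The autosomes gave 39.7 and 17.3 points, a difference of 22.4. In MGMT the rise was 21.3 points in MGMT-transfected and 35.6 in WT cells, a difference of -14.3 points with p = 0.045 by the exact permutation test and an adjusted p of 0.09, and without MGMT-transfected solvent replicate 1 it was -7.5 points with p = 0.135 by the exact permutation test. Without that library's whole set it was -10.0 points with an exact p of 0.05, and over pairs within the sets that hold both exposures it was -8.98 points with an exact p of 0.167. Over the 1296 matchings of TMZ and solvent libraries its exact p ran from 0.005 to 0.08, with 1184 at 0.05 or less, and it passed in 3 of 12 fits that left out 1 pair. The autosomes gave 24.2 and 32.8 points, a difference of -8.56.

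The difference between the lines in the share at G had opposite signs in 1 solvent group and both TMZ groups. After 1 solvent exposure MGMT-transfected cells were higher in 3 of 3 same-numbered pairs, by 24.5, 1.61 and 0.15 points. They were lower in 3 of 3 pairs after 1 TMZ exposure, a gap of 18.7 points between the means, and in 3 of 3 pairs after 3 TMZ exposures, a gap of 13.5 points. Without MGMT-transfected solvent replicate 1 the mean of the solvent pairs after 1 exposure fell from 8.75 to 0.88 points. The higher share in the solvent group thus rested mostly on that library. The gaps were then 10.8 and 5.6 points, most of which came from the TMZ groups. After 3 solvent exposures the pairs differed by -2.01, 5.04 and 12.7 points, with no common direction. The opposite directions were not tested.

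Sites with a score under 30, used only in the alternative with no score minimum, also had a higher share at G under TMZ. In the MGMT gene the mean share at G was 49.0% over the 12 TMZ libraries and 20.5% over the 12 solvent libraries (784 and 689 sites), a difference of 28.5 points with p = 2.5e-05 by the exact permutation test.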

How the results depend on the processing

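A result was called with or without an alternative by its unadjusted exact permutation p or its limma adjusted p, at a threshold of 0.05. Over 27 results, 135 of 139 alternatives that left out no library counted as the same. For gene rows and permutation tests this means the same direction and side of the threshold. For locus windows it means a called number equal or within 1.5 times, mostly 0 in both. For the naked DNA ratio it means a value inside the main interval. Sign permutations and division by naked DNA replicates 2 and 3 cannot change a difference between libraries. The others were these. With no score minimum, the difference between the lines in the all-base rate was 0.10 (p = 0.139, exact permutation test), and the called locus windows at all bases numbered 0. Without sites shared within a set, an alternative chosen after seeing the data, the difference between 3 and 1 exposures turned from -0.0076 to 0.042. When limma-trend replaced voom, on median-of-ratios sizes, MGMT differed between the lines under solvent by 0.43, with a limma adjusted p of 0.0455. Leaving out libraries or replicate numbers in turn moved the differences between the lines to 0.089 to 0.20 for the all-base rate, 0.00071 to 0.21 for body over flank, -9.04 to -6.03 points for the share at G, 0.025 to 0.12 for the G density over naked DNA and -1.17 to 1.89 points for the forward share. The TMZ difference in the G rate ran from 0.088 to 0.26, that in the share at G from 24.5 to 34.2 points, and the difference between exposures from -0.052 to 0.039. The limma difference of MGMT ran from 0.074 to 0.19 at all bases (adjusted p 0.0309 to 0.405) and from -0.20 to 0.10 for TMZ in transfected cells after 1 exposure, 0.16 to 0.52 in WT after 3, 0.02 to 0.20 in WT after 1 and -0.17 to -0.03 in transfected cells after 3, from 0.02 to 0.12 between the lines under TMZ, from 0.30 to 0.52 under solvent, from -0.12 to -0.03 between exposures and from -0.42 to -0.23 for the interaction, and called locus windows at all bases from 0 to 1. Without replicate 1 or replicate 3 of every group the all-base rate no longer passed (0.089 and 0.14), and the share at G between the lines under TMZ passed in 10 of 15 such fits. Under a replicate block the all-base rate had p = 0.0195 and the share at G under TMZ p = 0.0312 in exact sign permutations, the MGMT row at all bases a limma adjusted p of 0.115, and no call of these results changed. Counts of called genes moved by over 1.5 times: between the lines under TMZ from 1485 to 166 where limma-trend and median-of-ratios sizes were used together, under solvent from 67 to between 1 and 422, for TMZ in WT after 3 exposures from 225 to between 2 and 1103, in transfected cells from 493 to between 4 and 1266, between exposures from 0 to up to 497, and at all bases from 3712 to 2081. Called windows moved under TMZ between the lines from 2528 to between 0 and 5436, under solvent from 38 to between 0 and 237, for TMZ in WT from 4 to between 0 and 20 (1 exposure) and from 296 to between 11 and 1800 (3), in transfected cells after 3 from 720 to between 4 and 1675, between exposures from 1 to between 0 and 198, and at all bases from 12742 to 6993. Called genes also moved from 0 to up to 16 for TMZ in WT after 1 exposure. In transfected cells after 1 exposure they moved from 0 to up to 2, and for the interaction from 1 to between 0 and 2. The cause of these moves was not tested. The exon results planned were not run. Counts of 15 to 74 G sites limit the solvent libraries most.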
